A study of Mus musculus with 2 samples.

Results

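Growth arrest genes make proteins that hold a cell out of division. The set described here has 10 genes, chosen by name among 15622 genes with a read, of which 99 are transcripts that matched no gene and were kept as they are. They are the cyclin-dependent kinase inhibitors Cdkn1a, Cdkn1b, Cdkn1c and Cdkn2c, the stress genes Gadd45a and Gadd45g, the antiproliferative genes Btg1 and Btg2, and the p53 targets Mdm2 and Ccng1. Reads of all transcripts of each gene, matched in GENCODE mouse release M21 on GRCm38, were taken one by one and summed to genes. Cdkn1a leads the set because its cold over ctrl ratio was already known to be among the highest in these data. The ratios of the members are therefore a description of how they were chosen and were not tested.

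The tissue was interscapular brown fat, a heat-producing depot on the upper back, from male wild type C57BL/6N mice, 20 weeks of age. In the cold group, tissue of 3 mice that had been caged alone at 4 °C for 24 h was pooled into 1 library of 1215617 reads. In the ctrl group, 1 library held 1698124 reads, general housing was at 22 to 24 °C, and how many mice it pools is not stated in the labels. The treatment protocol of the ctrl sample repeats the text on cold housing, so its group rests on its treatment characteristic. The extraction protocol speaks of a different fat depot. Native poly(A)+ RNA was read on a nanopore from its 3′ end without amplification, so 1 read is 1 RNA molecule. Each group has 1 library, so the conditions could not be tested against each other. Ranges in parentheses are 95% intervals from the counts; they compare a pair of libraries and cover counting error only.

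Cells leave the division cycle when cyclin-dependent kinases are held inactive. Proteins of the CIP/KIP family (p21 from Cdkn1a, p27 from Cdkn1b, p57 from Cdkn1c) bind complexes of cyclins with these kinases. INK4 proteins such as p18 from Cdkn2c bind Cdk4 and Cdk6 alone. Cdkn1a is a classic target of the tumour suppressor p53, but many other signals act on it, among them glucocorticoids, FoxO factors, SMAD proteins and C/EBP factors. Mature brown adipocytes do not divide, whereas precursor and endothelial cells of the depot can divide in the cold.

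The promoter stretches of Cdkn1a, Gadd45g and Gadd45a are shown because the intervals of their ratios excluded 1 and RefSeq promoters were matched. The sequences are from RefSeq on GRCm38.p6 and cover the 250 bases before a start that RefSeq annotates, 5′ to 3′ on the gene's strand. Capitals mark the GC box GGGCGG, the pentamer CCAAT and the TATA box TATAAA, each searched on both strands.
Cdkn1a, chr17:29093519-29093768, plus strand: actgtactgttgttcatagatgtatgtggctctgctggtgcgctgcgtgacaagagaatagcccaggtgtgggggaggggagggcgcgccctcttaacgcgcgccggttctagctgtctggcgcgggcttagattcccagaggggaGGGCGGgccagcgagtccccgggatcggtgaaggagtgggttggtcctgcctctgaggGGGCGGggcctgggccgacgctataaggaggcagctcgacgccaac
Gadd45g, chr13:51846425-51846674, plus strand: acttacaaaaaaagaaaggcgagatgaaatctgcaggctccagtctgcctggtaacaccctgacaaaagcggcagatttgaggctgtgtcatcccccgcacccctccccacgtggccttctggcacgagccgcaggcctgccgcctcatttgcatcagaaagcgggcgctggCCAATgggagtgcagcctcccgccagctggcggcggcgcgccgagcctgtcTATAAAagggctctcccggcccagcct
Gadd45a, chr6:67037408-67037657, minus strand: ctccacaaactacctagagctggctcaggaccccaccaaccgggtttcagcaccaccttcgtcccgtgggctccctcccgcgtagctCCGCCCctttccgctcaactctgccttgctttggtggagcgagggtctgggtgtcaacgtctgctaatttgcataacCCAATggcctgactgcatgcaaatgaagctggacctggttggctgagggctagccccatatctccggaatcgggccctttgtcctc

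The Cdkn1a stretch held 2 GC boxes, at -104 to -99 and -46 to -41 relative to the start. That of Gadd45g held a CCAAT box at -78 to -74 and a TATA box at -27 to -22. Gadd45a had a CCAAT box at -86 to -82 and a GC box on the opposite strand at -163 to -158. Among 32851 promoters of all genes, 32.7% held a GC box, 33.8% a CCAAT box and 12.4% a TATA box in the same window. RefSeq promoters were matched for 9 of the 10 genes, in 11 windows, and for Cdkn1c none was matched. The window shown for Cdkn1a is the one at the start of Cdkn1a-201. Its other window, chr17:29090729-29090978, lies before an upstream start and held no GC, CCAAT or TATA box. The core of the cAMP response element (TGACG), held by 17.8% of all promoters, stood in the windows of Btg1 and Btg2, with 2 matches in each. In Btg2 they overlapped to form the full element (TGACGTCA), which 1.55% of all promoters held. Cdkn1a, Gadd45g and Gadd45a had no match to either. These letters are matches in a window and were not tied to binding of any factor.

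Cdkn1a (ENSMUSG00000023067) was the most read member in the cold library. It had 222 reads in the cold library, against 28 in the ctrl library. Scaled by trimmed-mean (TMM) factors this was a level of 172 scaled RPM (150 to 196) in the cold library and 17.5 (11.7 to 25.4) in the ctrl library. The cold level was thus 9.78-fold higher (6.58 to 15.1), a log2 ratio of 3.27. It ranked at place 5 of the 2677 genes whose reads in both libraries summed to 100 or more. A rank or likeness over 2 libraries is a description only. Nearest above it were Nnmt, which methylates nicotinamide, at 3.49, Slc25a34, a mitochondrial carrier, at 3.91, and Gmpr, a reductase of guanosine monophosphate, at 4.42 on the log2 ratio scale. Nearest below were Atp1b1, a sodium pump subunit, at 3.03, Adcy3, an adenylyl cyclase, at 2.77, and the muscle gene Mb (myoglobin) at 2.68. In bulk RNA such as this, more cells of a type and more RNA per cell cannot be told apart.

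**Figure D1:**
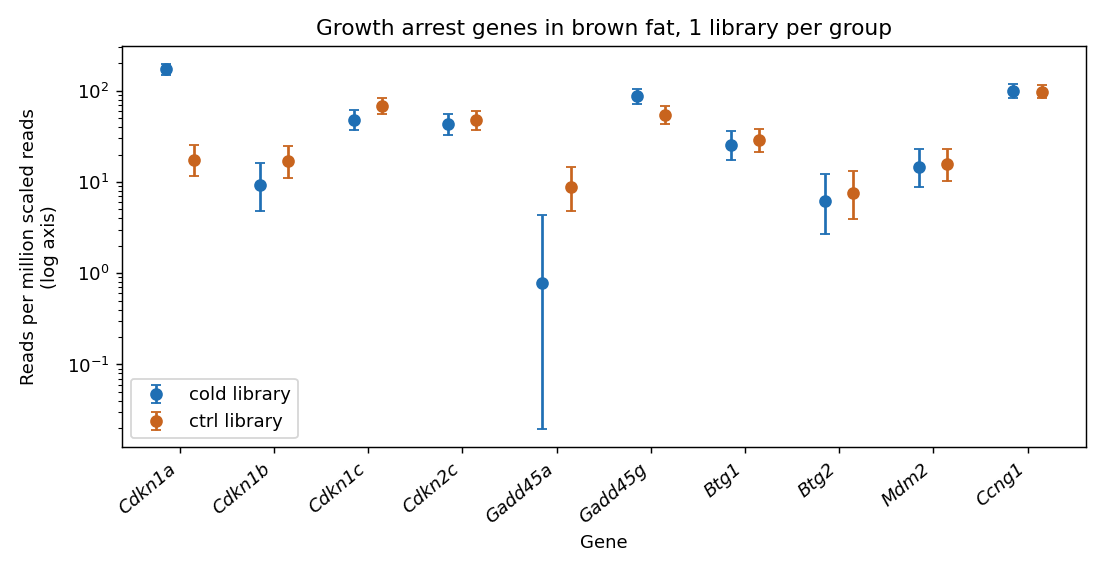
Scaled RPM (log axis) of the 10 genes, with the cold library left of the ctrl library for each gene; points are the single libraries and bars are 95% exact counting intervals. Cdkn1a stands at 172 in the cold library and 17.5 in the ctrl library, while Ccng1 is at 99.7 and 97.8.

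The other CIP/KIP genes had lower levels in the cold library than in the ctrl library. Cdkn1c (chromosome 7, 143458339 to 143461050, minus strand), which makes p57 and is expressed from the maternal allele only in most tissues, had 62 reads in the cold library and 109 in the ctrl library. It was 1.43-fold lower (1.03 to 1.98). This interval reached a ratio of 1 when libraries were scaled by total counts, where Cdkn1c stood at 0.795 (0.572 to 1.10). Cdkn1b (chromosome 6, 134920401 to 134925513, plus strand), which makes p27, had 12 and 27 reads in the cold and ctrl libraries, a ratio of 0.548 (0.253 to 1.12) that did not exclude equality.

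Within the CIP/KIP family the mix of transcripts differed, a comparison that needs no scaling of the libraries. Cdkn1a made up 75.0% of the family's 296 reads (69.7 to 79.8) in the cold library and 17.1% of 164 reads (11.7 to 23.7) in the ctrl library. Cdkn1c held 20.9% (16.5 to 26.03) in the cold library and 66.5% (58.7 to 73.6) in the ctrl library. For Cdkn1b the shares were 4.05% (2.11 to 6.97) in the cold and 16.5% (11.1 to 23.0) in the ctrl library. Cdkn1c was therefore the leading family member by reads in the ctrl library, and Cdkn1a in the cold library. Shares of a family depend on each other. The larger share of Cdkn1a in the cold library lowers those of Cdkn1b and Cdkn1c whatever their own levels.

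Cdkn2c (chromosome 4, 109660876 to 109667189, minus strand), the INK4 member, had 56 reads in the cold library and 76 in the ctrl library. Its ratio of 0.909 (0.632 to 1.30) included 1. It was nearly the whole of its family here. The other INK4 genes had 0 and 0 reads (Cdkn2a), 0 and 2 (Cdkn2b) and 5 and 11 (Cdkn2d) in the cold and ctrl libraries. Cdkn2a and Cdkn2b, both widely used as markers of cell senescence, were thus at or below 3 reads in each library.

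The GADD45 genes, which bind stress kinases and cell cycle proteins, went opposite ways. Gadd45g (chromosome 13, 51846678 to 51848468, plus strand) had 113 reads in the cold library, against 87 in the ctrl library, and was 1.60-fold higher (1.20 to 2.14). Gadd45a (chromosome 6, 67035096 to 67037457, minus strand) had 1 read in the cold library and 14 in the ctrl library. Its ratio was 0.0881 (0.00208 to 0.579), an interval that rests on a single cold read. It was the only one of the 10 genes with fewer than 20 reads over both libraries. The third gene of the family, Gadd45b, had 0 reads in the cold and 2 in the ctrl library. Of all GADD45 reads, Gadd45g made up 99.1% of 114 in the cold library and 84.5% of 103 in the ctrl library, a difference of 14.7 points (7.70 to 22.9).

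Btg1 and Btg2 make adaptor proteins that recruit the CCR4-NOT deadenylase to messenger RNA. Btg1 (chromosome 10, 96617006 to 96622809, plus strand) had 33 reads in the cold library and 46 in the ctrl library, a ratio of 0.885 (0.548 to 1.41). Btg2 (chromosome 1, 134075170 to 134079120, minus strand) had 8 reads in the cold library and 12 in the ctrl library, a ratio of 0.822 (0.291 to 2.19). A 2-fold difference in either direction was therefore not excluded by these counts. Both ratios included 1.

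Mdm2, the ubiquitin ligase that marks p53 for destruction, and Ccng1, cyclin G1, are textbook p53 targets like Cdkn1a. Mdm2 (chromosome 10, 117688875 to 117710758, minus strand) had 19 reads in the cold library and 25 in the ctrl library, a ratio of 0.937 (0.488 to 1.77). Counting only Mdm2-202, its most read form, gave a ratio of 0.580 (0.217 to 1.42). Ccng1 (chromosome 11, 40748552 to 40755311, minus strand) had 129 and 156 reads in the cold and ctrl libraries, which was 1.02-fold (0.801 to 1.30). The intervals of both genes included 1, and whether p53 acted on any of these genes was not tested.

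Over the 10 genes, the interval lay above a ratio of 1 for 2 (Cdkn1a and Gadd45g) and below it for 2 (Cdkn1c and Gadd45a), and it included 1 for 6. Among all 15622 genes with a read, 6.26% lay above and 6.03% below. Among 7529 genes with at least 20 reads, 11.3% lay above and 11.3% below. A difference of at least 2-fold with such an interval was found for 4.2% in the higher and 4.08% in the lower direction, and of the 9 growth arrest genes with 20 reads for Cdkn1a alone. The genes were named with this comparison known, so nothing is read from these shares. Their median log2 ratio was -0.15 over all 10 and -0.13 over the 9 with at least 20 reads, beside 0.00 over the 7529 genes. Scaling by total counts raised the median of all genes by 0.18, and by total counts free of mitochondrially encoded genes by 0.13. Under total counts Cdkn2c, Btg1 and Mdm2 (Mdm2 also without mitochondrially encoded genes, at 1.03) lay just above rather than just below a ratio of 1, at 1.03, 1.002 and 1.06, with 1 inside each interval.

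**Figure D2:**
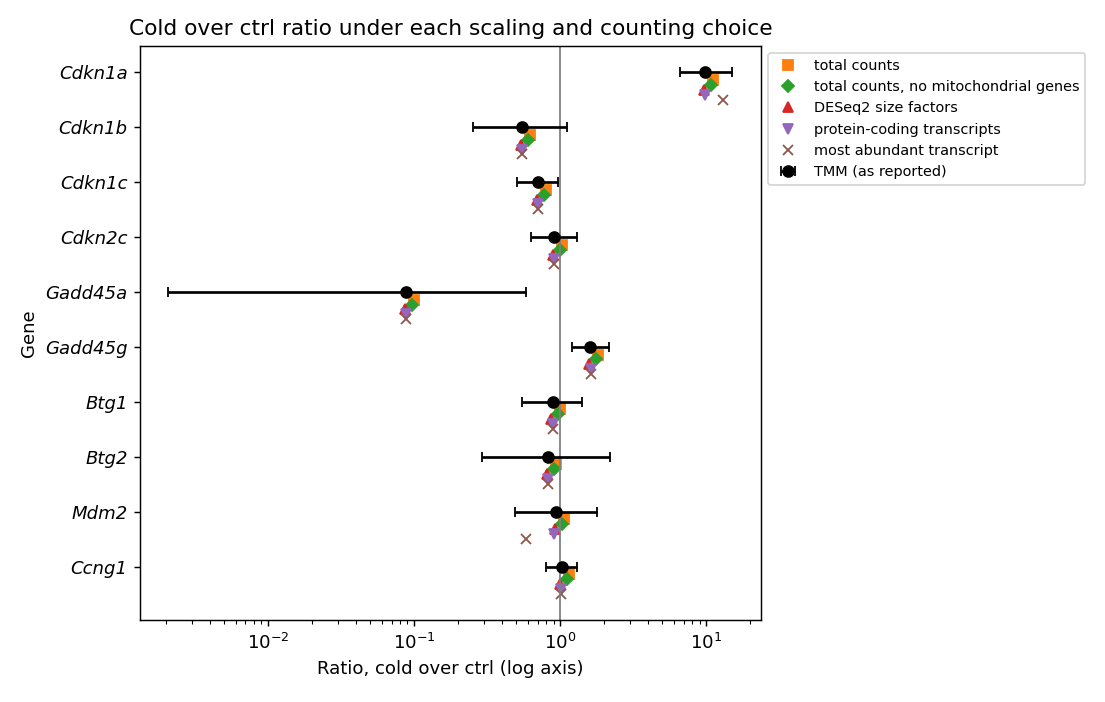
Ratio of cold over ctrl (log axis) for the 10 genes; black points are the TMM-scaled ratios with 95% exact counting intervals, and coloured marks are the ratios under the other scalings and ways of counting transcripts. Cdkn1a stays between 9.60 and 13.1 and Gadd45g between 1.57 and 1.81, while the intervals of 6 genes include 1.

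**Figure D3:**
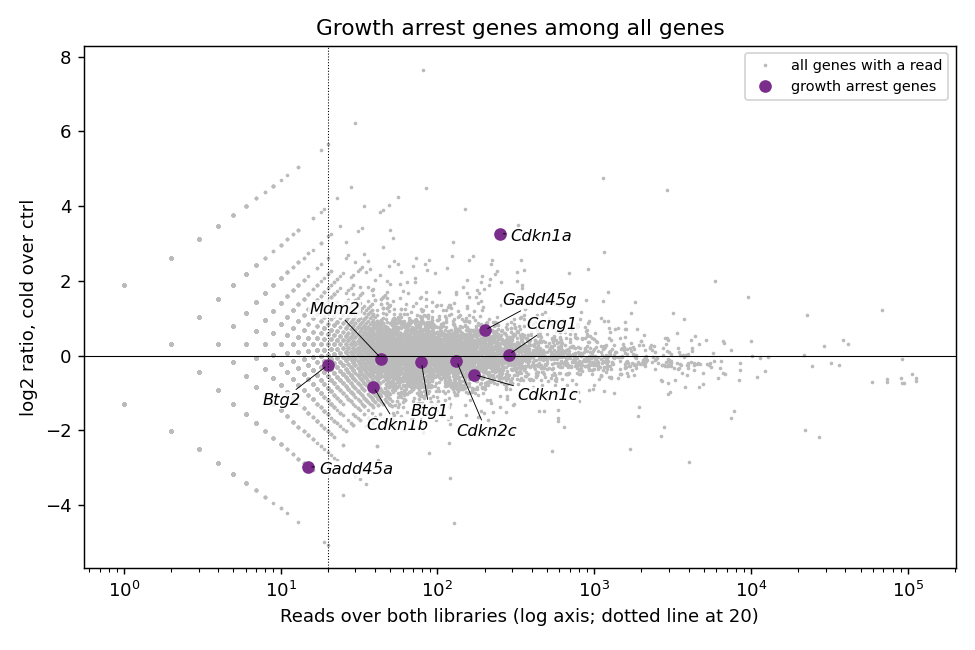
Log2 ratio of cold over ctrl against the reads of a gene over both libraries (log axis), with all genes in grey and the 10 genes in purple; the dotted line marks 20 reads. Cdkn1a, at 250 reads and a log2 ratio of 3.27, stands above most genes of like depth, and Gadd45a, at 15 reads and -2.97, stands left of the line.

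The order of the 10 genes by level depended on whether reads were divided by transcript length. In scaled RPM, without length, Cdkn1a led in the cold library at 172 and was 1.72-fold above Ccng1 at 99.7 (1.38 to 2.15), and Gadd45g came next at 87.3. In the ctrl library Ccng1 led at 97.8 scaled RPM and was 1.43-fold above Cdkn1c at 68.3 (1.11 to 1.85). Gadd45g followed at 54.5, not separated from Cdkn1c, and Cdkn1a was at place 6 with 17.5. The order was also taken per kilobase of transcript, for comparison only. As 1 read is 1 RNA molecule here, the order without length comes closest to a ranking by RNA molecules. The length was the mean over a gene's transcripts, weighted by their reads. On that scale the highest levels in the cold library were those of Cdkn1a, at 87.4 RPM per kilobase, and Gadd45g, at 81.9, which did not differ beyond counting error (ratio 1.07, 0.847 to 1.35). Ccng1 (28.5), Cdkn2c (26.3) and Cdkn1c (25.3) followed as a group whose neighbours did not differ. Btg1 (5.10), Mdm2 (4.74), Cdkn1b (2.43), Btg2 (2.25) and Gadd45a (0.632) came last, again without a difference between neighbours. Per kilobase, Gadd45g led in the ctrl library at 51.1 and was 1.42-fold above Cdkn1c at 36.1 (1.06 to 1.90). Cdkn2c (29.0) and Ccng1 (27.99) came next and did not differ from their neighbours in this group. Cdkn1a was at place 5 with 8.94, which was 3.13-fold below Ccng1 (2.09 to 4.87) and not separated from Gadd45a (7.17). Btg1 (5.77), Mdm2 (5.06), Cdkn1b (4.43) and Btg2 (2.74) followed, with no difference between neighbours.

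The 10 genes have 38 annotated transcripts, and 19 of them were listed with reads in at least 1 library. Those without reads were 7 protein-coding, 8 retained-intron and 4 processed transcripts. Retained-intron or other non-coding forms took few reads. Gadd45g-202, which retains an intron, had 2 reads in each library, Ccng1-202 had 1 in each, and Mdm2-209, annotated for nonsense-mediated decay, had 2 in each. Cdkn1b-203, a protein-coding form, had 0 reads in the cold library and 1 in the ctrl library. Btg1, Btg2 and Gadd45a were each read as 1 transcript only.

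Cdkn1a (chromosome 17, 29090976 to 29100727, plus strand) was read as Cdkn1a-201 and Cdkn1a-205, which start 12 bases apart and share their coding sequence of 477 bases. They differ in how far exon 1 runs, 93 bases in Cdkn1a-201 and 261 in Cdkn1a-205, and slightly in where exon 2 begins, both before the coding part. Cdkn1a-201 had 159 reads in the cold library and 15 in the ctrl library, which was 13.1-fold higher (7.69 to 23.9). Cdkn1a-205 had 63 and 13 reads in the cold and ctrl libraries, 5.98-fold higher (3.26 to 11.8). Both forms were thus higher in the cold library. The share of Cdkn1a-201 was 71.6% (65.2 to 77.5) in the cold library and 53.6% (33.9 to 72.5) in the ctrl library. The difference of 18.1 points had an interval of 0.0312 to 36.6, which barely excluded 0, and the intervals of the shares overlapped. Cdkn1a-202 and Cdkn1a-204, which begin near 29090979 at the upstream start, had no reads listed, nor had Cdkn1a-203.

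How far apart the forms lie along the RNA sets what a read from the 3′ end can tell. Cdkn1a-201 and Cdkn1a-205 are identical over 1814 bases, apart from a 5-base difference at the very 3′ end. That is 94.8% of the length of Cdkn1a-201, so a read that stops short of the first exon does not tell them apart. Cdkn1c-201 and Cdkn1c-202 share 1703 bases from the 3′ end, Mdm2-201 and Mdm2-202 share 2724 and Cdkn2c-201 and Cdkn2c-202 share 891. Cdkn1b-201 and Cdkn1b-202 part after 1271 bases, where an intron of the 3′ untranslated region is removed in Cdkn1b-201. How the authors assigned reads that match several forms is not given in the sources used here, so all splits between forms are uncertain.

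Transcript shares of the other genes were close to equal in the cold and ctrl libraries or too thinly read to compare. Cdkn1c-202 had 58.1% of the gene's reads in the cold library and 57.8% in the ctrl library. Cdkn2c-201 had 60.7% and 60.5%, and Cdkn1b-202 66.7% in both. For Mdm2, Mdm2-202 codes for a shorter protein than Mdm2-201, with 1320 against 1467 coding bases. Mdm2-202 had 8 reads in the cold and 17 in the ctrl library, and Mdm2-201 had 9 and 6. The share of Mdm2-202 in cold minus that in ctrl was -25.9 points, and the interval of -49.9 to 3.28 included 0. Of 5712 genes with at least 20 reads and several listed forms, the share of the most read form had an interval above 0 in 4.41% and below 0 in 1.91%.

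**Figure D4:**
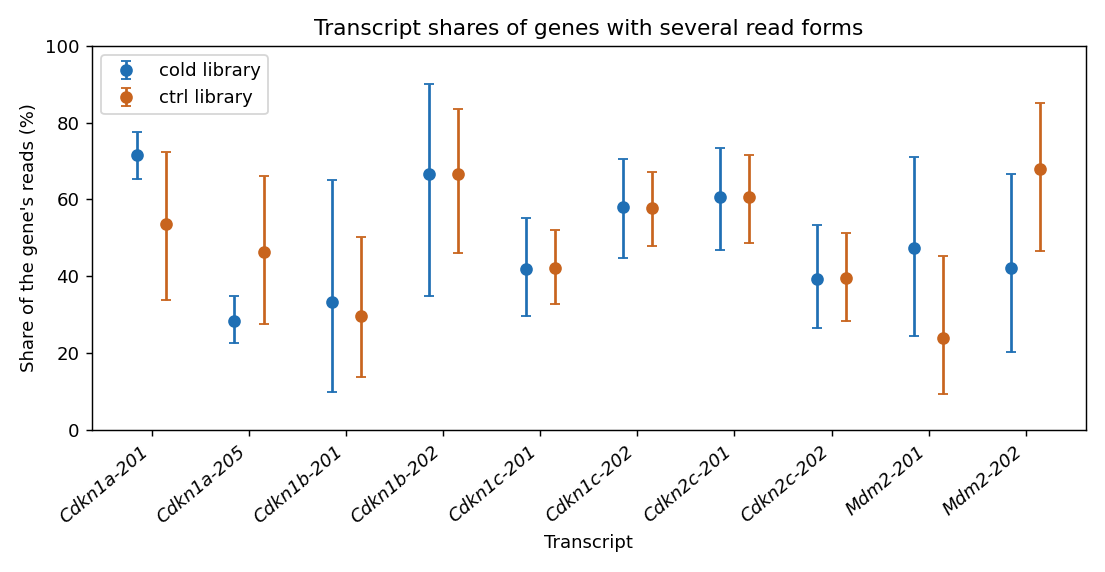
Share of a gene's reads (%) held by each main transcript of Cdkn1a, Cdkn1b, Cdkn1c, Cdkn2c and Mdm2, with the cold library left of the ctrl library; bars are 95% exact binomial intervals. Cdkn1a-201 holds 71.6% in the cold library and 53.6% in the ctrl library, and the shares of Cdkn1c and Cdkn2c forms lie almost level.

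No near-identical expressed copy was found for the 10 genes. The largest overlap in 31-base words was 3.78% of Btg1 with Gm14519, which had no reads in either library. The antisense or unclassified genes that overlap Cdkn1a, Cdkn1c and Gadd45a had no reads in either library.

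Further genes of the pathways were compared by lists, each with the members that had at least 20 reads. Of 28 listed p53 targets and regulators, 13 had that many, and 4 lay above a ratio of 1 and 1 below. Over all 7529 genes with that many reads, 11.3% lay above and 11.3% below, which is the background for each list. The count above was 5 with total counts, 3 with protein-coding transcripts only and 2 from the most abundant transcripts. Those above were Aen, a nuclease of apoptosis, at 2.36-fold (1.13 to 5.21), Tigar, a phosphatase that restrains glycolysis, at 1.87-fold (1.12 to 3.17), Ei24 at 1.76-fold (1.36 to 2.30), and the adenylate kinase Ak1 at 1.52-fold (1.08 to 2.15). Phlda3, an inhibitor of Akt signalling with 467 and 744 reads in the cold and ctrl libraries, was 1.29-fold lower (1.15 to 1.45). Trp53 itself had 7 and 18 reads, a ratio of 0.480 (0.169 to 1.20), and Cop1, a ubiquitin ligase that acts on p53, had 34 and 58, a ratio of 0.723 (0.459 to 1.12). The median log2 ratio of this list was 0.14, which turned to -0.06 when only protein-coding transcripts were counted. Over the 27 genes of the list with at least 1 read, 5 lay above and 3 below. Among all genes with a read, 6.26% lay above and 6.03% below.

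Other cell cycle brakes had a median log2 ratio of -0.39 over 10 genes, and this was -0.21 with total counts. None lay above a ratio of 1 and 4 lay below. These were Mxi1, an antagonist of Myc, at 2.12-fold lower (1.09 to 4.38), Gadd45gip1 at 1.67-fold lower (1.24 to 2.28), the Myc antagonist Mxd4 at 1.49-fold lower (1.12 to 2.00), and Tob1, a relative of the BTG proteins, at 1.32-fold lower (1.05 to 1.66). With total counts 1 of the list lay above and 1 below. Tob2, the closest relative of Tob1, had 137 reads in the cold and 133 in the ctrl library, a ratio of 1.27 (0.993 to 1.62), and Ccng2, cyclin G2, had 36 and 34, a ratio of 1.31 (0.794 to 2.15).

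Cyclins, cyclin-dependent kinases and genes that act with them showed no interval that excluded 1 among 11 genes. With total counts 1 lay above, and with DESeq2 size factors 1 lay below. Over the 25 genes of the list with at least 1 read, 0 lay above and 1 below. The highest ratios were those of Cdc25a, a phosphatase that activates the kinases, at 1.92 (0.773 to 5.02) on 14 and 9 reads in the cold and ctrl libraries, and of E2f2 at 1.85 (0.897 to 3.93) on 21 and 14. Cdk4 had 32 and 61 reads in the cold and ctrl libraries, a ratio of 0.647 (0.408 to 1.008), and Cdk2 had 8 and 18, a ratio of 0.548 (0.206 to 1.32). Cdk7, the kinase that activates the others, had 9 and 20, a ratio of 0.555 (0.222 to 1.27). Ccnd3, cyclin D3, had 50 and 58 reads and a ratio of 1.06 (0.713 to 1.58). The list's median log2 ratio was -0.03 and turned to 0.15 with total counts. Genes of proliferating cells were at the edge of detection. Of 27, 7 had no read in either library, among them Mki67, and 4 had at least 20 reads. Of these Tyms, which makes thymidylate, was 2.88-fold higher (1.26 to 7.14) on 21 and 9 reads, and Rrm1, Pcna and Mcm7 had intervals that included 1. With total counts 2 of the 4 lay above. The median log2 ratio of these 4 was 0.53. It was -0.39 over the 20 genes with at least 1 read, of which 1 lay above a ratio of 1 and 1 below.

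Listed binding partners of the 10 proteins were, with 1 exception, not separated between the libraries. Of 13 measured, only Gak, a kinase that binds cyclin G, had an interval above 1, at 1.82-fold (1.18 to 2.82). Subunits of CCR4-NOT, the complex that BTG proteins bind, ranged from Cnot8 at 0.705 (0.426 to 1.14) to Cnot1 at 1.35 (0.875 to 2.07). The median of the list was -0.09 on the log2 ratio scale and was positive with total counts, at 0.09, and when only the most abundant transcripts were counted, at 0.13. The counts were 1 above and 1 below with DESeq2 size factors, and 2 above and 0 below with protein-coding transcripts only.

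Of 16 measured transcription factors known to act on Cdkn1a, 3 lay above a ratio of 1 and 3 below, beside 11.3% of all genes in each direction. The counts were 3 above and 1 below with total counts, and 2 above and 3 below with DESeq2 size factors. Smad3, a mediator of TGF-beta signals, had 47 reads in the cold and 12 in the ctrl library and was 4.83-fold higher, with a lower bound of 2.52. Foxo1 was 1.53-fold higher (1.02 to 2.32) and Cebpb 1.14-fold (1.04 to 1.26). Below 1 was Egr1 at 12.2-fold lower (3.09 to 105) on 2 and 30 reads. Smad2 at 2.03-fold lower (1.06 to 4.08) and Klf4 at 1.88-fold lower (1.02 to 3.61) barely excluded 1. Cebpa, the factor of mature adipocytes, had 524 and 682 reads and a ratio of 0.947 (0.844 to 1.06). The median log2 ratio of -0.06 turned to 0.12 with total counts.

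Glucocorticoid response genes had a median log2 ratio of 0.44 over 8 genes, with 3 intervals above 1 and 0 below. Klf15 was 2.68-fold higher (1.82 to 4.00), Ddit4, an inhibitor of mTORC1, 2.11-fold (1.05 to 4.42) and Dusp1, a phosphatase of MAP kinases, 1.42-fold (1.02 to 1.97). The intervals of other classic targets included 1, with Tsc22d3 at 0.911 (0.457 to 1.78), Per1 at 1.15 (0.738 to 1.79) and Sgk1, the most read of the list, at 1.30 (0.965 to 1.76). The count above was 5 with total counts and 2 with protein-coding transcripts only. Their receptor gene Nr3c1 had 58 reads in the cold and 55 in the ctrl library, a ratio of 1.30 (0.884 to 1.92). FoxO targets had a median of 0.38 over 9 genes, with 7 intervals above 1 and 0 below (6 and 1 with DESeq2 size factors). Trim63, a ubiquitin ligase best known from muscle, had 27 reads in the cold and 1 in the ctrl library, a ratio of 33.3 (5.49 to 1363). Irs2, an insulin receptor substrate, was 3.58-fold higher (1.69 to 8.23), Bcl6 2.12-fold (1.35 to 3.39) and Gabarapl1, an autophagy gene, 1.69-fold (1.32 to 2.17). The most read targets lay closer to 1, with Sod2, a superoxide dismutase, at 1.10 (1.01 to 1.20), Pdk4, a kinase that restrains pyruvate oxidation, at 1.18 (1.07 to 1.30), and catalase (Cat) at 1.18 (1.05 to 1.33). Txnip was lowest of the 9 at 0.895 (0.791 to 1.01). Over the 14 FoxO targets with at least 1 read, 7 lay above and 2 below, beside 6.26% and 6.03% of all genes with a read. Those below were Sesn1, with 1 read in the cold and 12 in the ctrl library, and Sesn3, with 1 and 10. The summed reads of the list were 1.14-fold higher (1.09 to 1.20). Both medians stayed above 0 under each scaling tried.

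**Figure D5:**
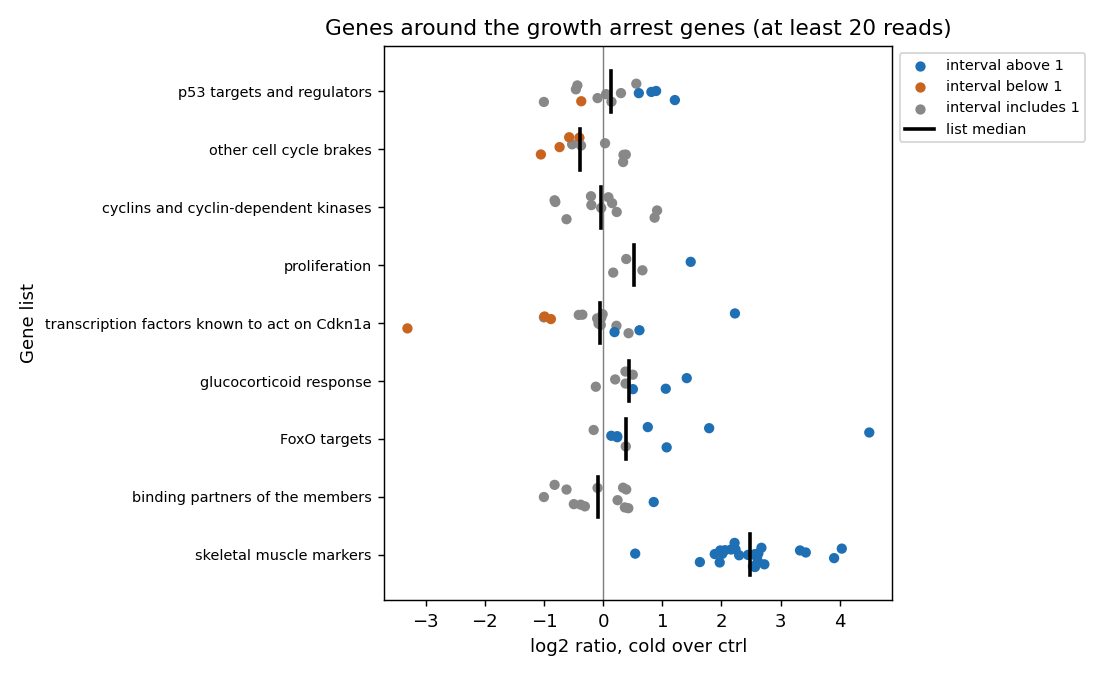
Log2 ratio of cold over ctrl for genes with at least 20 reads in the 8 lists around the growth arrest genes and in the skeletal muscle markers; each point is a gene, coloured by whether its 95% counting interval lies above, below or across a ratio of 1, and black lines are list medians. Muscle markers sit furthest right, with a median of 2.49, and FoxO targets and glucocorticoid response genes lie mostly right of 0.

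The tissue label fitted the markers, and skeletal muscle markers moved with Cdkn1a. Brown adipocyte markers took 3.45% of reads in the cold library and 2.49% in the ctrl library, and all 8 were read in both. After scaling their sum was 1.23-fold higher (1.21 to 1.24) in the cold library. Of these 8, 5 lay above a ratio of 1 and 1 below. Muscle markers took 0.231% of reads (0.223 to 0.240) in the cold library and 0.0482% (0.0450 to 0.0516) in the ctrl library. All 24 muscle markers with at least 20 reads had an interval above 1, from 1.46-fold (Myl1) to 18.9-fold (Cox6a2). Their summed reads were 4.23-fold higher (3.91 to 4.58). None of the 25 muscle markers was at 0 in either library. Cdkn1a and Trim63 are also expressed in skeletal muscle. The part of muscle RNA in their ratios, or in those of the other genes of the lists, was not tested.

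The other lists of cell type markers had summed ratios nearer to 1 wherever they held more than a few reads. Summed reads in cold over ctrl were 1.23-fold for endothelial markers (1.11 to 1.37), 1.39-fold for macrophage markers (1.09 to 1.79), 0.939-fold for fibroblast markers (0.801 to 1.10), 0.877-fold for mural and smooth muscle markers (0.737 to 1.04) and 0.857-fold for Schwann cell markers (0.669 to 1.10). Lymphocyte markers had 8 reads in the cold library and 2 in the ctrl library. Their part in the ratios of the growth arrest genes was not tested.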

How the data were processed

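The deposited files give whole-number read counts per Ensembl transcript, made by the authors and not normalized. A transcript without reads has no line in them. Per the submitters' processing notes, minimap2 and GRCm38 were used. The aligner's version, the counter and the treatment of reads matching several transcripts were not given. Groups came from the treatment characteristic in the labels.

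Transcripts were matched by identifier without version to GENCODE M21, which left 0.0652% of cold and 0.0571% of ctrl reads without a gene. These stayed in the library sizes as features of their own. Counts were summed to genes. Effective library sizes were 1293824 (cold) and 1595479 (ctrl) reads with TMM factors of 1.06 and 0.940 (edgeR 4.0.16). A ratio is cold over ctrl of scaled counts, with a 95% interval derived exactly (Clopper-Pearson) from the split of a gene's reads between the libraries. Log2 ratios used a prior of 0.5 reads. Shares have exact binomial intervals and their differences Newcombe intervals. The calculation was tested on simulated data.

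The members and lists were chosen with earlier results of these data known. Named were all members and their listed transcripts, the 3 genes next above and below Cdkn1a in ratio, and from each pathway list up to 2 genes each with the highest ratio, the lowest ratio and the most reads. Ak1, Mxd4, Smad2, Klf4, Nr3c1, Bcl6, Gabarapl1, Cat, Sesn1, Sesn3, Cnot8, Mki67, Gadd45b, Cdkn2a, Cdkn2b and Cdkn2d were named after their values were seen. Marker lists are given by their sums, with the extremes of the muscle list.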

Additional observations from a re-analysis of the deposited data

How the results depend on the processing

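The Cdkn1a ratio kept its direction and an interval above 1 under every scaling and way of counting tried, from 9.60 with DESeq2 size factors to 13.1 from its most abundant transcript alone, and 11.1 with total counts. The count of genes with an interval above 1 was 2 under each of these. The count below 1 was 2 as reported and with DESeq2 size factors or protein-coding transcripts only. It was 1, Gadd45a, with total counts, with these less the mitochondrially encoded genes, and from the most abundant transcript alone. With the most abundant transcript fewer reads are counted, and the total-count scalings shift all ratios upwards. The Mdm2 ratio of 0.937 was 0.580 from its most abundant transcript alone. A prior of 2 reads in place of 0.5 moved the log2 ratio of Gadd45a to -2.11 from -2.97 and that of Cdkn1a to 3.20 from 3.27. Depth limited Btg2, Cdkn1b, Mdm2 and Gadd45a most, with 15 to 44 reads each over both libraries. No paired analysis was possible because each group has 1 library, and for the same reason no library could be left out.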
